A study of Mus musculus with 8 samples.

Results

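Solute carriers and ATP-binding cassette (ABC) proteins are the membrane transporters of the liver. They were picked here by gene symbol, as all probes whose annotated symbol has the form of an Slc, an Slco or an Abca to Abcg gene. This gave 276 probes of 204 symbols, out of 20794 probes and 9030 named genes on the array. The 3 symbols Slc6a20a, Abca1 and Slc6a2 lacked a value in at least 1 dye orientation of a mouse, so 201 members entered the test among 16796 features (named genes and unnamed probes). Of these 201, 146 had 1 probe and 55 had more. The symbol rule also caught 3 proteins that carry nothing themselves, the scaffolds Slc9a3r1 and Slc9a3r2 and the protein Slc4a1ap, and 4 ABC proteins without a membrane domain (Abce1, Abcf1, Abcf2 and Abcf3).

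Hepatocytes take up bile salts and other organic anions from blood, mainly through Slc10a1 and Slco carriers, and pump them into the bile canaliculus through ABC transporters. Abcb11 exports bile salts there, and Abcb4 flips phosphatidylcholine into the canaliculus, where the phospholipid shields the biliary epithelium from bile salts. Inside the cell, Slc25 carriers exchange metabolites across the inner mitochondrial membrane, while Slc2, Slc7, Slc38 and Slc27 carriers serve the trade in sugars, amino acids and fatty acids with blood.

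The samples were livers of 4 male Abcb4-/- mice of the Balb/cByJ strain, aged 17 weeks, each hybridised on 2 two-colour cDNA arrays with exchanged dyes. The reference on every array was a pool of liver RNA from wild-type Balb/cByJ males of the same age, made from 4 animals by the sample labels and from 6 by the labelling protocol. In mouse 1 one column repeated the other with its sign reversed (their sum stayed within 0.012 of 0), so mice 2 to 4 with their 6 arrays were used. A value is a log2 ratio, and a positive one likely means more RNA in the mutant, since the mutant is channel 1 of every sample; the sources used here do not state the direction. The pool was the only control, so the spread among wild-type mice is in no test, and the making of the null allele was not given in the sources used here.

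The 6 arrays were uneven. Placeholder values for a channel without signal numbered between 19 and 83 per array and were dropped. The members spread most widely on the Cy3 array of mouse 3 (the array that held the mutant in Cy3), where their SD was 0.50, while the other 5 arrays had SDs of 0.20 to 0.29. Over the 201 members, the mean correlation between mice was 0.24 for arrays of equal dye orientation and 0.031 for arrays of opposite orientation, while the arrays of mice 2, 3 and 4 correlated within the mouse at 0.095, -0.14 and 0.026. These correlations are descriptions over genes, which are not independent, and all arrays share the pool. Bulk liver RNA cannot tell fewer cells of a type from less RNA per cell, and a ratio shows no level, so the tissue label could not be checked against markers by level. The hepatocyte markers measured were Alb, Ttr, Ass1, Tat and Hnf4a, with mean ratios between -0.060 and 0.065.

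Slc25a16, a carrier of the inner mitochondrial membrane linked to coenzyme A, was the member that passed the test. Its log2 ratios were 0.91 and 0.96 on the arrays of mouse 2, with the mutant in Cy5 and in Cy3 respectively, 0.72 and 1.03 in mouse 3, and 0.69 and 0.77 in mouse 4. All 6 lay well above 0 and the dye orientations overlapped. The mean of 0.85 ± 0.11 (SD, n = 3) was a 1.80-fold difference, with a 95% interval of 0.67 to 1.03 and an adjusted p of 0.0112 (limma with Benjamini-Hochberg adjustment over all features). The 1 member past the threshold was 0.498% of the 201 members, against 0.333% of all features, so the members' share was near the background. With 2 mice the mean stayed between 0.80 and 0.91 but the limma adjusted p rose to 0.120 without mouse 2, 0.0546 without mouse 3 and 0.0546 without mouse 4. On the Cy3 arrays alone the mean was 0.92 with a limma adjusted p of 0.0651.

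Slc25a30, another mitochondrial carrier, originally described in kidney, came second by p and did not pass. Its ratios were 0.55 and 0.69 in mouse 2, 0.13 and 0.62 in mouse 3, and 0.48 and 0.79 in mouse 4 (Cy5, then Cy3). Every array was above 0, and within each mouse the Cy3 array was the higher. The mean was 0.54 ± 0.14 (SD, n = 3), with a 95% interval of 0.35 to 0.74 and a limma adjusted p of 0.0581, just outside the threshold. Fitting the 6 arrays with a random block for the mouse and a term for the dye gave a limma adjusted p of 0.0181. That fit takes arrays as units, 2 from each mouse, while the main fit takes the 3 mice. Slc25a30 also passed with mouse 1 added, with single probes and without low-signal values, and in no other alternative. Leaving out low-signal values was chosen after seeing the data and left 10751 features tested. In the alternatives where Slc25a30 passed, 85 to 145 of all features passed, against 56 in the main fit. Its passes thus came where more features passed in general. The limma adjusted p was 0.118 after median centring and 0.191 on the Cy5 arrays alone. With 2 mice the mean lay between 0.50 and 0.63, at a limma adjusted p of 0.306 without mouse 2, 0.0727 without mouse 3 and 0.270 without mouse 4. Neither Slc25a16 nor Slc25a30 had a low-signal value, meaning one equal to a ratio of small whole numbers as dim spots give, and each rested on 1 probe.

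The sequences upstream of the start sites of the members with the highest mean ratios are given to identify the loci. They are RefSeq sequences of build GRCm38.p6, the 250 bases before the annotated start, 5′ to 3′ on the gene's strand, at chr10:62920383-62920632 (plus strand) for Slc25a16 and chr14:75787038-75787287 (minus strand) for Slc25a30. Capitals mark the GC box GGGCGG and the CCAAT box, searched on both strands.
Slc25a16: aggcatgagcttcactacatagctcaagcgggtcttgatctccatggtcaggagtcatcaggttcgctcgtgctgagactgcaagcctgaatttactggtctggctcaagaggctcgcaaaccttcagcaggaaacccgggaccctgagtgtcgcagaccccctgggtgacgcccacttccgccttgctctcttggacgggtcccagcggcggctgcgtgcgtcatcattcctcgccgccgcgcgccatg
Slc25a30: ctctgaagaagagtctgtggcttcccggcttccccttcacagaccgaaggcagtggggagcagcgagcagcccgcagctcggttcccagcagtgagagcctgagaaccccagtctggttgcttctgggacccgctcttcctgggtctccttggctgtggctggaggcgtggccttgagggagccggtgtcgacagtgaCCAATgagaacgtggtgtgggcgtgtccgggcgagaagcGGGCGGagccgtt
Slc25a30 had 1 GC box and 1 CCAAT box in this window and Slc25a16 had 0 of each, with 60.8% and 64.4% G or C in Slc25a16 and Slc25a30. A GC box stood in 32.9% of 27025 such windows and in 88 of the 159 found for members, and a CCAAT box in 34.5% of all and 53 of those 159. A match describes letters in this window only.

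**Figure D1:**
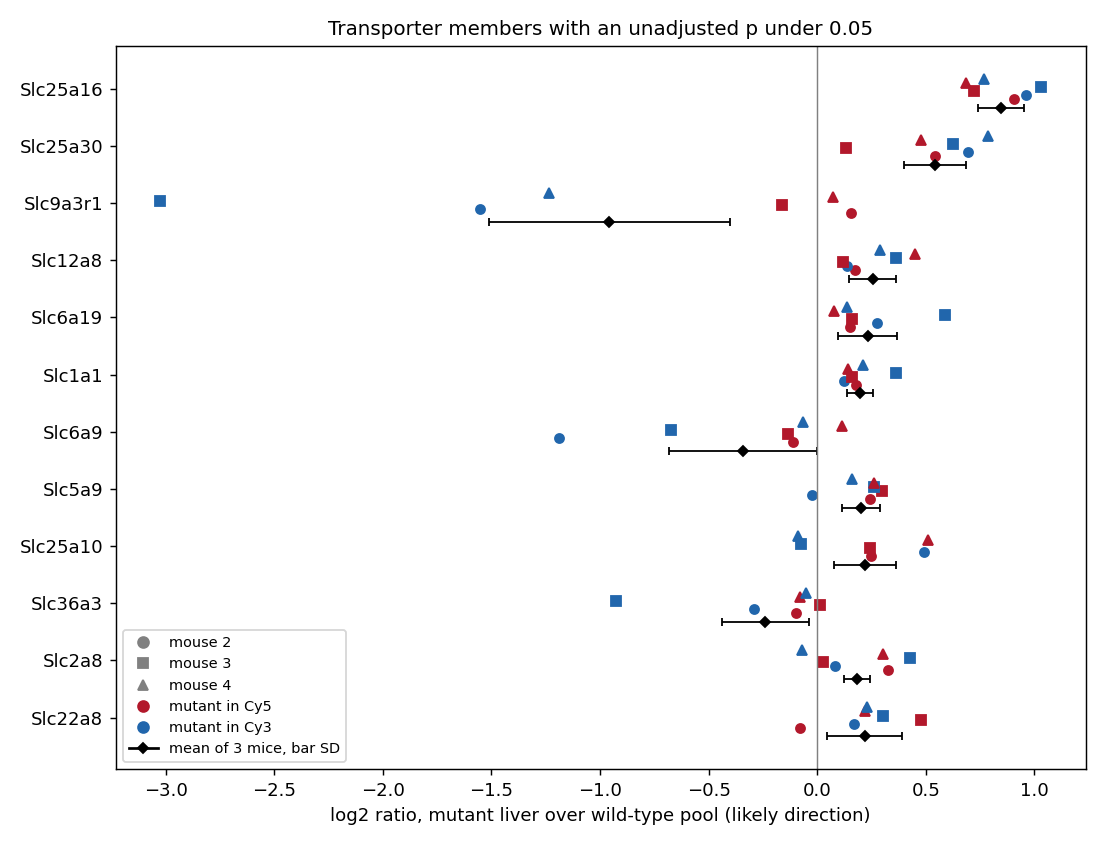
Log2 ratios (x axis) of the 12 members with an unadjusted limma p under 0.05 (y axis), in order of p. Each coloured point is 1 array, with the dye as colour and the mouse as shape, and the black diamond with its bar is the mean and SD of 3 mice. Slc25a16 and Slc25a30 lie above 0 on all 6 arrays, and the Cy3 arrays of Slc9a3r1 lie far below its Cy5 arrays.

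Over the whole set the ratios were small. The median over the 201 members was 0.023, against 0.023 over all features, and 127 members (63.2%) were above 0, against 59.5% of all features. The interquartile range of the members was -0.029 to 0.080. At an unadjusted limma p under 0.05 there were 12 members, or 5.97%, against 9.92% of all features. Higher with such a p were 9 of the 201 members, against 1127 of 16796 features (6.71%). Lower were 3 of the 201 members, against 539 of 16796 features (3.21%). For 199 of the 201 members the 95% interval of the mean lay inside a 2-fold difference in either direction (99.0%, against 99.4% of all features), and for 194 inside a 1.5-fold difference (96.5%, against 96.4%). These shares were near those of all features. The exceptions at 2-fold were Slc25a16 and Slc9a3r1. These intervals cover the spread of 3 mice against 1 pool. For the classes and lists below, the background is 9.92% of all features with an unadjusted limma p under 0.05 and 59.5% above 0.

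**Figure D2:**
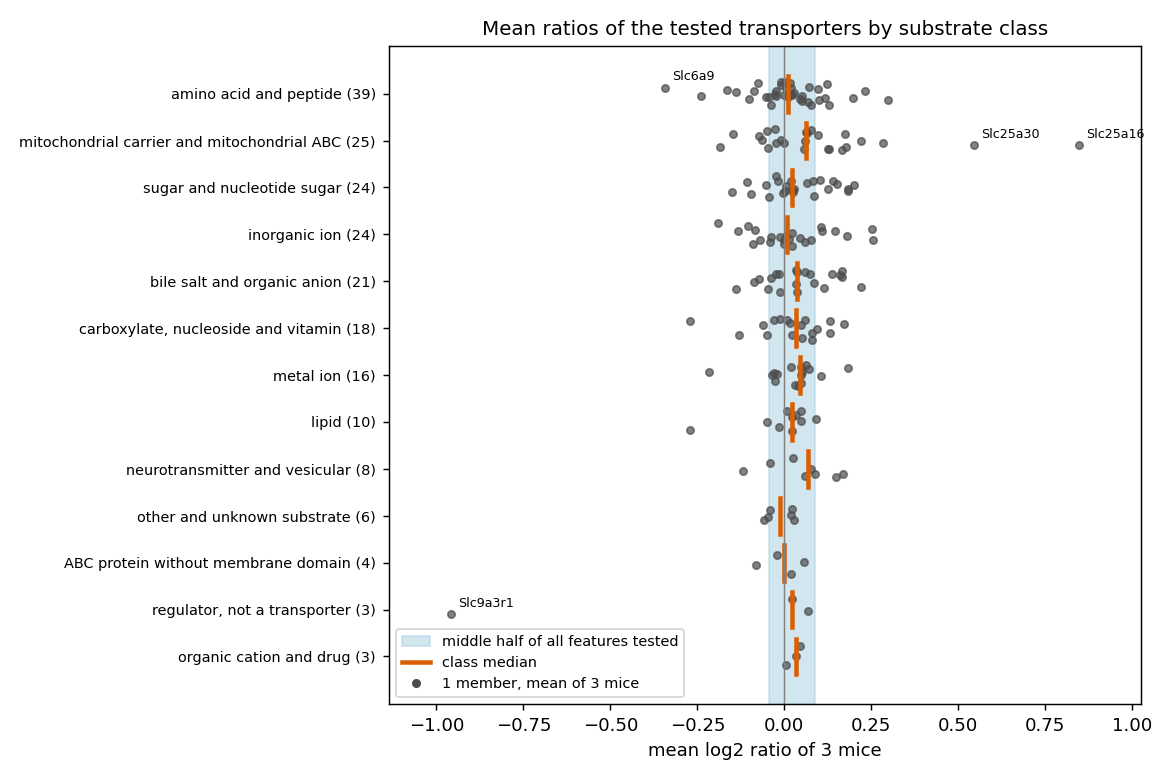
Mean log2 ratio over 3 mice (x axis) of each of the 201 tested members, by substrate class with the number tested in brackets (y axis). Grey points are members, orange bars are class medians and the blue band is the interquartile range of all features tested, from -0.044 to 0.089. All class medians lie inside the band, and Slc25a16, Slc25a30 and Slc9a3r1 stand farthest from it.

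Among the transporters of bile salts and organic anions, none passed the limma test. Against 9.92% of all features, 1 of 21 had an unadjusted limma p under 0.05. The class median was 0.036, with 13 of 21 members above 0 (61.9%, against 59.5% of all features). It was 0.087 without mouse 2, 0.013 without mouse 3 and 0.021 without mouse 4. Abcb11, the canalicular bile salt export pump, had ratios of 0.10 and 0.05 in mouse 2, 0.08 and 0.42 in mouse 3 and 0.01 and 0.15 in mouse 4, Cy5 before Cy3. It was above 0 on all 6 arrays, mostly close to it, and the mouse 3 Cy3 array was the highest. The mean was 0.14 ± 0.10 (SD, n = 3), with a 95% interval of -0.04 to 0.31 and a limma adjusted p of 0.618. The interval reaches up to a 1.24-fold increase. The member with the lowest p was Slc22a8, an organic anion exchanger best known from kidney. Its arrays ran from -0.08 to 0.48 and its mean was 0.22 ± 0.17 (SD, n = 3; limma adjusted p = 0.463).

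Slc22a13, an organic anion carrier of nicotinate and urate, had a mean of 0.16 ± 0.06 (SD, n = 3) and was above 0 on all 6 arrays, between 0.05 and 0.42. Slco1a6, a member of the organic anion transporting polypeptides, had 0.16 ± 0.11 (SD, n = 3), and 3 of its 6 values were low-signal values. The hepatic uptake carriers Slc22a7 and Slco2b1 stood at -0.04 ± 0.19 and -0.01 ± 0.17 (SD, n = 3 each), and Abcc6, a liver ABC protein needed to keep soft tissue free of mineral, at 0.04 ± 0.07. For these 3 genes arrays fell on both sides of 0. The Slc22a family, which also holds organic cation carriers, had 9 of 10 members above 0 with a median of 0.052. The Slco family had 3 of 7 with a median of -0.013. On the Cy5 arrays 9 of 10 Slc22a and 6 of 7 Slco members were above 0, against 72.6% of all features. On the Cy3 arrays these counts were 5 of 10 and 2 of 7, against 46.6%. The difference between these families was not tested.

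The lipid transporters held Abcb4, the gene mutated in these mice. The 1 probe named Abcb4 had ratios of 0.07 and -0.26 in mouse 2, -0.11 and -1.20 in mouse 3, and -0.18 and 0.04 in mouse 4 (Cy5, then Cy3). The mouse 3 Cy3 array was by far the lowest and the other 5 straddled 0. The mean of -0.27 ± 0.33 (SD, n = 3) did not pass (limma adjusted p = 0.530), and its 95% interval ran from -0.56 to 0.02. Without mouse 3 the mean was -0.08. Where the probe lies relative to the change in the null allele is unknown here, and its ratio therefore checks no label.

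None of the other lipid members tested had a mean beyond 0.10 in size. Of the 10 tested, 0 had an unadjusted limma p under 0.05, against 9.92% of all features. Slc27a4, a fatty acid transport protein with acyl-CoA synthetase activity, had 0.09 ± 0.12, and Abca6 had 0.05 ± 0.03 over 4 probes (SD, n = 3 each). The means of the 4 Abca6 probes ran from -0.09 to 0.30. The very long chain acyl-CoA synthetase Slc27a2 was at 0.02 ± 0.18, the bile acid-CoA ligase Slc27a5 at 0.03 ± 0.12 and Abcd3, a peroxisomal ABC half-transporter, at 0.01 ± 0.27 (SD, n = 3 each). Abca1, which loads cholesterol onto apolipoprotein, was not tested because mouse 2 lacked its Cy3 value. Its other arrays gave 0.01 in mouse 2, 0.29 and -1.85 in mouse 3 and 0.78 and 0.29 in mouse 4. In Abca1 as in Abcb4 the mouse 3 Cy3 array was the lowest by far, and 4 of the values of Abca1 were low-signal values.

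In the Abcb subfamily as a whole, 2 of 6 members were above 0. Beside Abcb4 and Abcb11, the porphyrin transporter Abcb6 had -0.07 ± 0.03, the mitochondrial ABC proteins Abcb8 and Abcb10 had 0.06 ± 0.10 and -0.05 ± 0.06, and the lysosomal peptide transporter Abcb9 had -0.04 ± 0.14 (SD, n = 3 each). The limma adjusted p of these 4 lay between 0.805 and 0.921. All 19 tested ABC symbols together had a median of 0.0082, with 10 above 0.

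**Figure D3:**
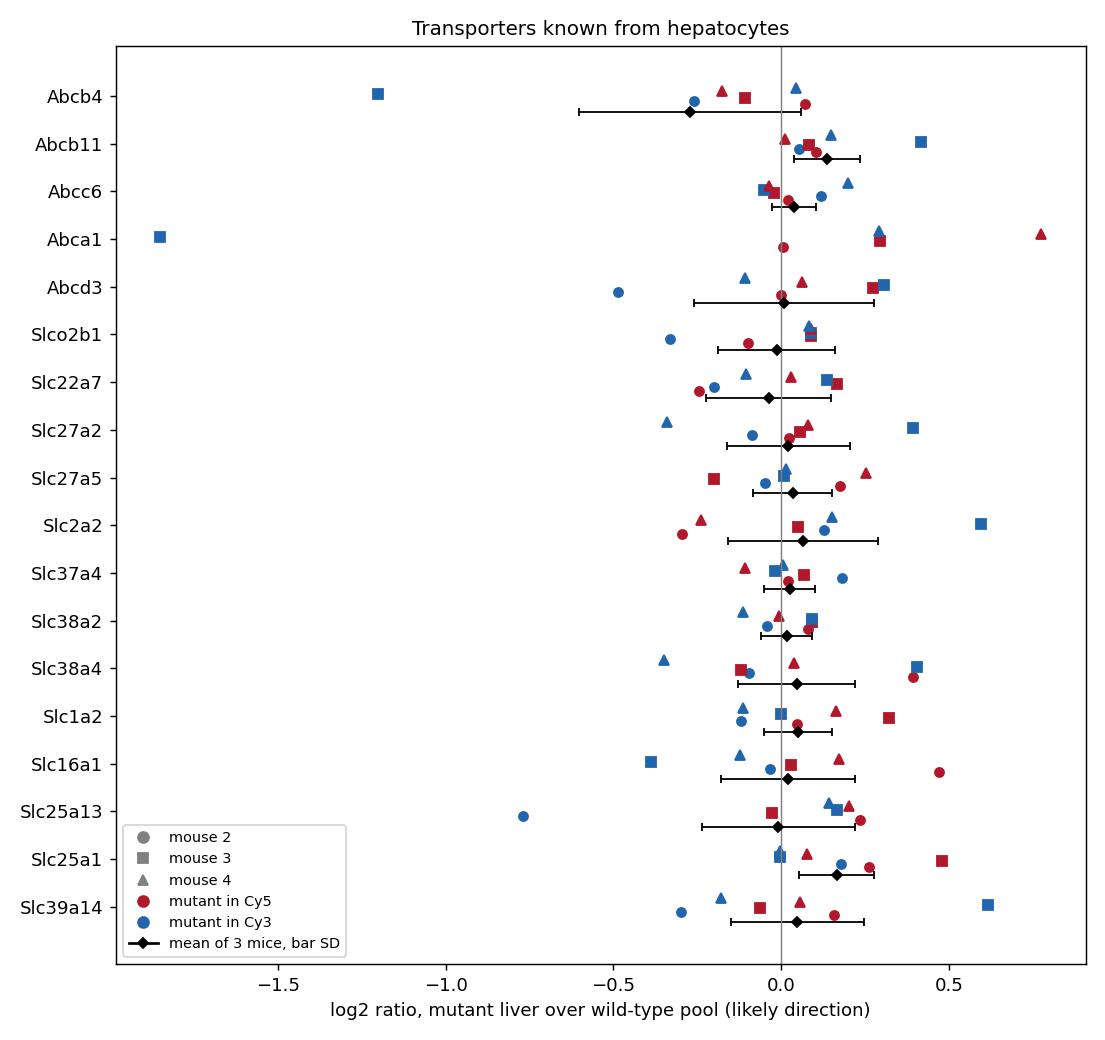
Log2 ratios (x axis) of the 18 listed liver transporters with a probe (y axis), with 1 coloured point for each array and the black diamond and bar for the mean and SD of 3 mice. Abca1 has 5 arrays and no mean. Most genes scatter around 0 on both dyes, and the lowest points are those of Abca1 and Abcb4 on the mouse 3 Cy3 array.

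The mitochondrial carriers and mitochondrial ABC proteins had a median of 0.061, with 15 of 25 above 0 (60%, against 59.5% of all features). The median was 0.11 without mouse 2, 0.048 without mouse 3 and 0.044 without mouse 4. Against 9.92% of all features, 3 of 25 members had an unadjusted limma p under 0.05, with 1 beside Slc25a16 and Slc25a30. This was the dicarboxylate carrier Slc25a10, which exchanges malate and succinate for phosphate, at 0.22 ± 0.14 (SD, n = 3; limma adjusted p = 0.428). Its probes did not match. On one, the 6 arrays lay between 0.34 and 0.76 with a mean of 0.47 ± 0.11, and on the other between -0.91 and 0.61 with a mean of -0.03 ± 0.36 (SD, n = 3 each).

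Other mitochondrial carriers that did not pass had means on both sides of 0. Slc25a11, the oxoglutarate and malate carrier, had 0.18 ± 0.12 with 5 of 6 arrays above 0. Slc25a1, which exports citrate for fatty acid synthesis, had 0.16 ± 0.11 with 4 of 6 arrays above 0 (SD, n = 3 each). The aspartate and glutamate carriers differed in value, Slc25a12 at 0.13 ± 0.12 and Slc25a13, the liver form known as citrin, at -0.01 ± 0.23. For Slc25a13 the Cy3 array of mouse 2 gave -0.77 and the other 5 lay between -0.03 and 0.24. The phosphate carrier Slc25a3 and the adenine nucleotide translocator Slc25a5, both abundant in mitochondria, had -0.02 ± 0.06 and -0.03 ± 0.15 (SD, n = 3 each). The Slc25a family alone had a median of 0.072 with 14 of 22 above 0.

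The amino acid and peptide transporters were the largest class, with 39 tested. None passed the limma test, and 4 of 39 had an unadjusted limma p under 0.05, against 9.92% of all features. The median was 0.012, with 23 above 0 (59%, against 59.5% of all features). Slc6a19, the neutral amino acid transporter of gut and kidney, had arrays of 0.15 and 0.28, 0.16 and 0.59, and 0.08 and 0.14 in mice 2, 3 and 4. All were above 0, and the mean was 0.23 ± 0.13 (SD, n = 3; limma adjusted p = 0.386). Slc1a1, a glutamate and aspartate transporter, was above 0 on all 6 arrays with a mean of 0.20 ± 0.06 (SD, n = 3; limma adjusted p = 0.419). Slc1a1 had 4 probes, and all 4 had positive means, from 0.14 to 0.29.

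The members of this class with a negative mean and an unadjusted p under 0.05 were lowest on Cy3 arrays. Slc6a9, the glycine transporter, had -0.11, -0.13 and 0.12 on the Cy5 arrays of mice 2 to 4 and -1.19, -0.68 and -0.06 on the Cy3 arrays, with a mean of -0.34 ± 0.34 (SD, n = 3; limma adjusted p = 0.422). Slc36a3, a proton-coupled amino acid transporter family member, had -0.24 ± 0.20 (SD, n = 3), with -0.93 on the mouse 3 Cy3 array and the others between -0.29 and 0.01. Of its 2 probes, 1 gave -1.96 on the mouse 3 Cy3 array, had 2 low-signal values and lacked a mouse 4 Cy3 value. The other gave 0.10 on the mouse 3 Cy3 array and a mean of -0.05 ± 0.14 (SD, n = 3). The transporters that hepatocytes use for glutamine, alanine and glutamate were near 0, with Slc38a2 at 0.02 ± 0.08, Slc38a4 at 0.05 ± 0.17 and Slc1a2 at 0.05 ± 0.10 (SD, n = 3 each). The Slc38 family had 7 of 8 members above 0 with a median of 0.018, and the Slc7 family 4 of 7 with a median of 0.022. By orientation, 8 of 8 Slc38 members were above 0 on the Cy5 arrays and 2 of 8 on the Cy3 arrays. For the Slc7 family these counts were 4 and 3 of 7, and for all features the shares were 72.6% and 46.6%.

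Among 24 tested sugar and nucleotide sugar transporters none passed the limma test. Against 9.92% of all features, 2 of 24 had an unadjusted limma p under 0.05. The median was 0.023, with 16 above 0 (66.7%, against 59.5% of all features). Slc5a9, a sodium-coupled carrier of mannose and fructose, had 0.24 and -0.02 in mouse 2, 0.30 and 0.26 in mouse 3 and 0.26 and 0.16 in mouse 4. Only the mouse 2 Cy3 array was below 0, and the mean was 0.20 ± 0.09 (SD, n = 3; limma adjusted p = 0.427). The intracellular glucose transporters Slc2a8 and Slc2a6 had 0.18 ± 0.06 and 0.15 ± 0.012 (SD, n = 3 each). The small SD of Slc2a6 is that of mouse means, since its arrays ran from 0.01 to 0.30. Slc2a2, the main glucose transporter of the hepatocyte membrane, had -0.30, 0.05 and -0.24 on the Cy5 arrays and 0.13, 0.59 and 0.15 on the Cy3 arrays. The Cy3 array was the higher in each mouse, and the mean was 0.07 ± 0.22 (SD, n = 3; limma adjusted p = 0.887). Slc37a4, which carries glucose-6-phosphate into the endoplasmic reticulum for glucose release, was at 0.02 ± 0.08.

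The remaining classes held 1 transporter with an unadjusted p under 0.05, Slc12a8, and none that passed the limma test. Slc12a8, of the cation-chloride cotransporter family, had 0.18 and 0.14 in mouse 2, 0.12 and 0.36 in mouse 3 and 0.45 and 0.29 in mouse 4. It was above 0 on all arrays with a mean of 0.26 ± 0.11 (SD, n = 3; limma adjusted p = 0.300). Other inorganic ion carriers were the anion exchanger Slc4a9 at -0.19 ± 0.19 and the sulfate transporter Slc26a1 at 0.25 ± 0.38, whose 6 arrays ran from -0.31 to 0.98. The class had a median of 0.0088 (-0.0036 without mouse 3) with 14 of 24 above 0.

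Metal ion carriers had a median of 0.044 (0.0095 without mouse 3) with 11 of 16 above 0. The magnesium transporter Slc41a2 had 0.18 ± 0.17, the phagosomal metal transporter Slc11a1 of macrophages -0.22 ± 0.36, the zinc transporter Slc30a5 0.10 ± 0.02 and Slc39a14, which takes up zinc and iron into hepatocytes, 0.05 ± 0.20 (SD, n = 3 each). The macrophage markers that could be measured, Lyz2 and Clec4f, were at 0.02 ± 0.10 and -0.08 ± 0.14, and their mean ran from -0.26 to 0.15 over the arrays. Their part in the ratio of Slc11a1 was not tested. Carriers of carboxylates, nucleosides and vitamins had a median of 0.034 with 12 of 18 above 0. There the sulfate carrier Slc13a1 had 0.17 ± 0.16, the dicarboxylate carrier Slc13a3 -0.27 ± 0.39, the citrate carrier Slc13a5 0.13 ± 0.06 and the lactate and pyruvate carrier Slc16a1 0.02 ± 0.20 (SD, n = 3 each).

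Vesicular and neurotransmitter carriers had 6 of 8 above 0. Slc32a1, the vesicular carrier of GABA, had 0.17 ± 0.11, and the vesicular glutamate carriers Slc17a7 and Slc17a8 had 0.15 ± 0.07 and -0.12 ± 0.18 (SD, n = 3 each). The organic cation and carnitine carriers Slc22a21, Slc22a2 and Slc22a5 stood at 0.04 ± 0.06, 0.03 ± 0.17 and 0.0048 ± 0.12. The translation factors Abcf1, Abcf2 and Abcf3 had -0.08 ± 0.09, 0.06 ± 0.11 and 0.02 ± 0.12. Among carriers with other substrates the lowest p belonged to Slc49a4 at -0.06 ± 0.10 and Slc66a2 at -0.05 ± 0.05. Slc9a3r2 and Slc4a1ap had 0.07 ± 0.07 and 0.02 ± 0.14. The limma adjusted p of the members in this paragraph lay between 0.540 and 0.992.

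The lowest mean ratio belonged to Slc9a3r1, a scaffold protein that ties transporters and channels of the apical membrane to the actin cortex. Its ratios were 0.16, -0.16 and 0.07 on the Cy5 arrays of mice 2, 3 and 4 and -1.55, -3.03 and -1.23 on their Cy3 arrays. The orientations did not overlap, and only the Cy3 arrays were far below 0. The mean of -0.96 ± 0.56 (SD, n = 3) did not pass, at a limma adjusted p of 0.113. In a limma test of the difference between orientations, the deviation of each orientation from the mean was 0.98, with an adjusted p of 0.0640. Of its 6 values 2 were low-signal values. The mean on the Cy5 arrays was 0.02 and on the Cy3 arrays -1.94, so the negative mean rests on the Cy3 orientation.

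The dye orientations were also compared over all members. A value above 0 on all 3 Cy5 arrays and below 0 on all 3 Cy3 arrays was found for 15 members, or 7.46%, against 7.25% of all features, and the opposite division for 0 members, against 1.29%. None of the members passed the limma test of the orientation difference, against 0.155% of all features, and 26 had an unadjusted p under 0.05 (12.9%, against 14.2% of all features). The widest of the 15 were Slc13a3, with means of 0.42 on the Cy5 and -0.97 on the Cy3 arrays, Slc36a2, a proton-coupled transporter of glycine and proline, with 0.32 and -0.65, and Slc4a9 with 0.15 and -0.54. A dye effect of equal size in both orientations cancels in the mean of a mouse. Over the members the median was 0.073 on the Cy5 and -0.0090 on the Cy3 arrays.

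**Figure D4:**
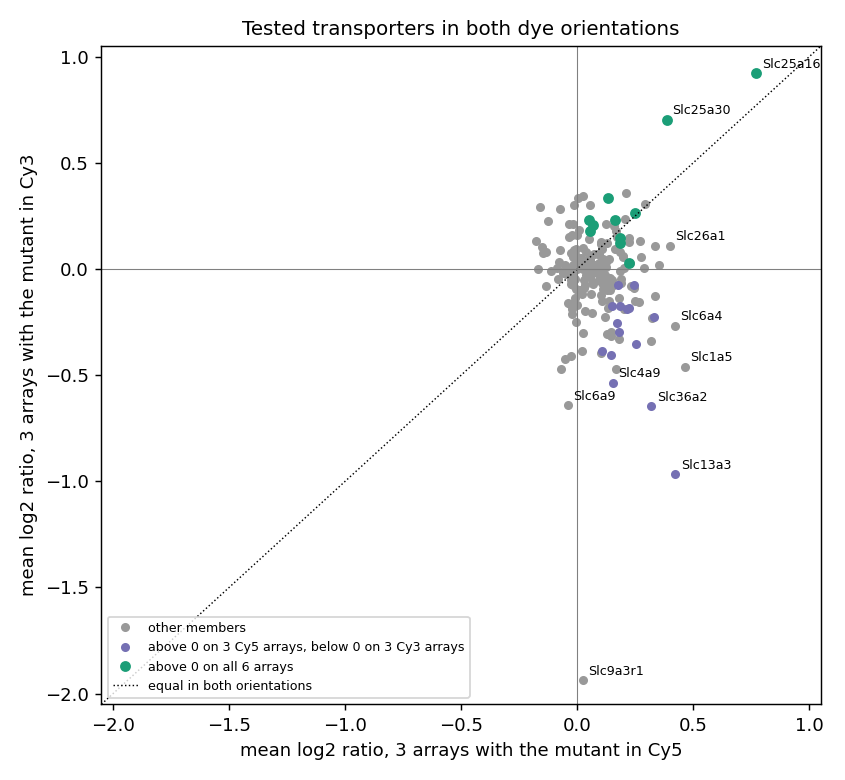
Mean log2 ratio of each tested member on the 3 arrays with the mutant in Cy5 (x axis) and on the 3 with it in Cy3 (y axis), with equal values on the dotted line. Green points were above 0 on all 6 arrays and purple points above 0 on the Cy5 and below 0 on the Cy3 arrays of all 3 mice. Slc25a16 and Slc25a30 lie high in both orientations, while Slc9a3r1 is near 0 on x and lowest on y.

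A value above 0 on all 6 arrays was found for 11 members, or 5.47%, against 6.1% of all features, and a value below 0 on all 6 for 0 members, against 0.905%. By mean ratio the 11 were led by Slc25a16, Slc25a30, Slc12a8, Slc6a19 and Slc1a1, whose values are given above. The sodium-coupled sugar carrier Slc5a11 was among the others, at 0.14 ± 0.10 (SD, n = 3), as were Slc3a1, a subunit of the cystine transporter, at 0.12 ± 0.03, and Slc43a2, a neutral amino acid carrier, at 0.12 ± 0.08.

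Members with more than 1 probe allowed a comparison of probes that carry 1 gene name. Of 53 symbols with at least 2 probes measured in all mice, the probe means had 1 sign in 20. Over the 91 pairs of such probes, each entered both ways round, the correlation of mean ratios was -0.088, a description over pairs that share arrays and partly share genes. The median distance between the lowest and the highest probe of a symbol was 0.14. Slc37a2, a sugar phosphate exchanger, had the widest range over its 4 probes, from -0.58 ± 0.50 to 0.17 ± 0.07. In Slc38a9, the lysosomal arginine sensor of the mTORC1 pathway, 1 probe had 0.63 ± 0.80 with 2.10 on the mouse 2 Cy3 array and 3 low-signal values, and the other had -0.04 ± 0.14. Slc6a17, a vesicular amino acid carrier, ran from -0.27 ± 0.17 to 0.21 ± 0.18 over 3 probes, and Slc27a4 from -0.12 ± 0.17 to 0.30 ± 0.08 over its pair (SD, n = 3 each). The names come from the platform annotation, and these values give them no support, so each ratio belongs to its probes first. Slc25a16 and Slc25a30 have no second probe to compare.

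**Figure D5:**
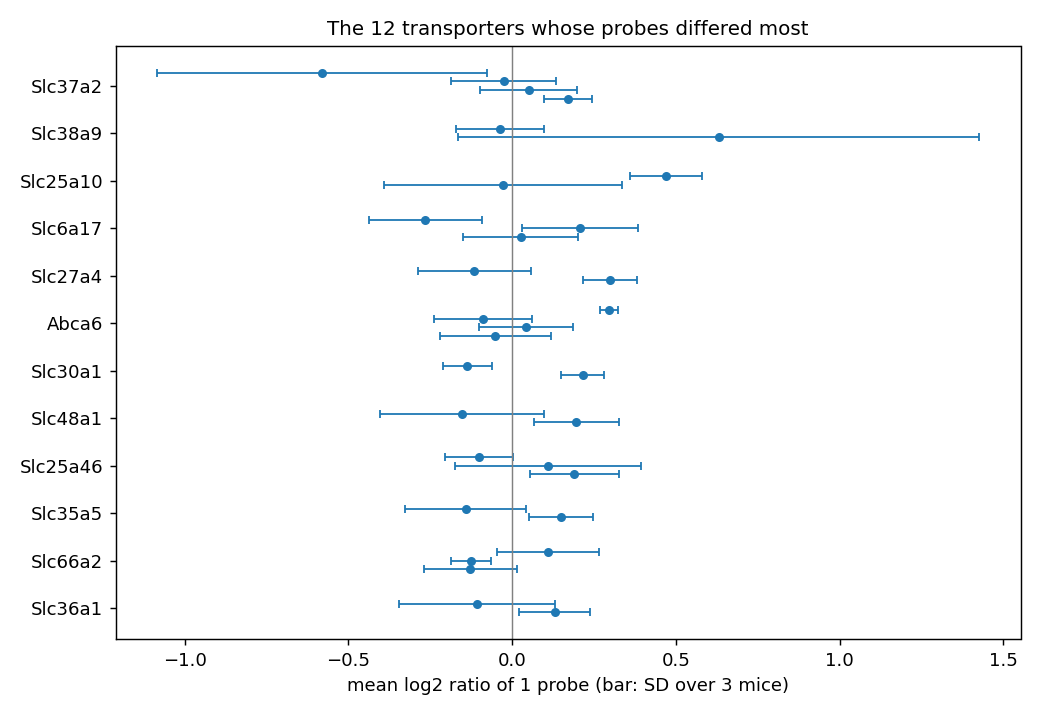
Mean log2 ratio of each probe (x axis) for the 12 members whose probes differed most (y axis), with the SD over 3 mice as bar. For each of these 12, probes fall on both sides of 0.

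The other genes of bile and lipid transport that were listed for comparison also stayed under the threshold. Of 27 listed partners and regulators, 18 were measured, 15 were above 0 (59.5% of all features were) and none passed the limma test. The mean of these 18 fell on both sides of 0 over the arrays, from -0.12 to 0.13. Against 9.92% of all features, 2 of the 18 had an unadjusted limma p under 0.05. These were Mpc1, a subunit of the mitochondrial pyruvate carrier, at 0.24 ± 0.09, and Nr1i2, the pregnane X receptor, at 0.17 ± 0.06 (SD, n = 3 each). The basolateral bile salt exporter subunits Slc51a and Slc51b were at 0.05 ± 0.14 and -0.10 ± 0.19, the bile acid receptor Nr1h4 at 0.04 ± 0.17, and Pdzk1, a scaffold of transporters, at 0.11 ± 0.09. Of the 35 listed liver transporters 18 had a probe and 17 were tested, with 13 above 0, none past the limma test and none with an unadjusted p under 0.05. The mean of these 17 ran from -0.12 to 0.092 over the arrays. The rest of the 35, among them Slc10a1, Abcc2, Abcg5 and Slco1b2, were not analysed here.

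Marker genes of other cell types were read in the same way. Of 4 bile duct markers measured 3 were above 0, among them Krt7 at 0.81 ± 1.10, with Krt19 at -0.07 ± 0.06, and their mean ran from 0.034 to 0.94 over the 6 arrays. Of 4 endothelial markers 2 were above 0, with Eng at -0.39 ± 0.20. The mean of these 4 ran from -0.42 to 0.38 over the arrays. The means of 3 stellate cell, 3 red blood cell and 3 kidney and gut markers ran from -0.21 to 0.38, from -0.21 to 0.05 and from -0.14 to 0.23. None of these genes passed the limma test. Krt7, Vwf and Eng had an unadjusted limma p under 0.05, with means of 0.21, 0.08 and 0.02 on the Cy5 arrays. On the Cy3 arrays their means were 1.41, -0.56 and -0.80, so their overall means rest mainly on the Cy3 orientation. The part of the marker genes in the transporter ratios was not tested.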

How the data were processed

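The deposited values are log2 ratios of the channels of each array. Scale was read from the values; scanner, background correction, normalization, centring and sign were not given in the sources used here. Column medians, from mouse 1 Cy5 and mouse 1 Cy3 to mouse 4 Cy3, were 0.023, -0.023, 0.054, -0.060, 0.069, 0.078, 0.081 and -0.031. Per the labels' protocols, cDNA was labelled indirectly. Columns were used as deposited. That orientations run the same way is read from placeholders, positive on Cy5 and negative on Cy3 arrays. This assumes that the same dye lacked signal on every array, which was not tested. Over all features, arrays of opposite orientation correlated at -0.019 between mice, and at 0.12, -0.14 and 0.010 within mice 2, 3 and 4.

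Values above 15 in size were dropped, probes averaged by platform symbol per array, and both arrays of a mouse averaged, as 1 replicate. Of 20794 probes 12771 had 1 symbol, 8023 none here and 0 several, and all 204 member symbols equalled those of GRCm38.p6 by Entrez identifier. Features with 3 mice were fitted in limma 3.58.1 (R 4.3.3, lmFit and eBayes, mean against 0, two-sided, Benjamini-Hochberg, threshold 0.05), checked on simulated data. The 95% intervals are limma's and unadjusted. The number of arrays limits the precision, and intensities were not used here. Values that came within 0.0011 of log2 of a ratio of whole numbers up to 8, after adding a constant for each array, were marked as low signal (9.84% of all values, 9.22% of the members' values, and 2.22% by coincidence when the ratios were shifted). Named are the Abcb subfamily, calls, the 3 members with the lowest p per class, the 5 highest and 5 lowest with 1 sign on all arrays, listed liver transporters and the 5 whose probes differed most; others were chosen after their values were seen. Members, classes and lists were chosen with earlier results of these data known.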

Additional observations from a re-analysis of the deposited data

Results flagged for a closer look

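The mouse 3 Cy3 array was the widest of 7 separate hybridisations over the transporters, with an SD of 0.498, far from the next. The same array was far from the other 5 for Abcb4, at -1.20, for Abcb11, at 0.417, and for Slc1a1, at 0.365. The mouse 2 Cy3 array was far from the others for Slc25a13, at -0.768, for Slc22a5, at -0.236, and for Slc9a3r2, at -0.085. In all, 6 of 62 named members had such an array. The criterion marks about 1 in 20 groups by chance, which is no background for these members, since some were named for their values. The first column of mouse 1, which entered an alternative fit and no value of the main comparison, gave 0.784 for Slc25a16 and 0.439 for Slc25a30, both of the sign found in mice 2 to 4. Over all 201 members 52.7% had the sign of the mean in that column, as did 49.0% of all features and 8 of the 12 members with an unadjusted p under 0.05. The column holds 1 dye orientation and the same pool. Its sign-reversed copy, the other column of mouse 1, gave -0.784 for Slc25a16 and -0.439 for Slc25a30. The shared sign therefore depends on which of these columns was taken.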

How the results depend on the processing

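The count of 1 member past the threshold became 0 without any of mice 2, 3 or 4 (range 0 to 0), on the Cy3 arrays alone and with the Cy3 arrays turned, and 2 with scaled arrays (Slc25a16 higher, Slc9a3r1 lower), with 6 arrays and mouse as a random block, with mouse 1 added, with single probes and, an alternative chosen after seeing the data, without low-signal values (the last 4 with Slc25a16 and Slc25a30 higher). It stayed at 1 under median centring, on Cy5 arrays alone, with mouse 3 from its Cy5 array alone, with 2 of 3 mice enough and with a variance trend. Over all features 56 passed in the main fit. In the alternatives with 0 members past the threshold, 0 to 26 features passed. With 1 member the range was 23 to 39, and with 2 members 75 to 145. The member count thus rose and fell with the calls over all features, and its changes show nothing particular to the members. Turning the Cy3 arrays takes the difference between orientations, and gave -0.075 for Slc25a16. Of 61 named members 30 kept their sign under the other 14 alternatives, and 19 changed sign without some mouse. The random block, 2 of 3 mice enough and the variance trend left these means unchanged, so they could turn no sign. Many of these members were named for a low p in these data, and no share of all features is given.

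The median of all members was -0.0088 after median centring, 0.076 on Cy5 and -0.0090 on Cy3 arrays alone, and 0.0043 to 0.050 with a mouse left out. For amino acid carriers it was -0.020 after centring, 0.025 scaled, 0.11 on Cy5, -0.061 on Cy3, 0.086 with Cy3 turned, 0.019 with mouse 1 and 0.044 with mouse 3 from Cy5, and 0.00025 to 0.018 with a mouse left out. For carboxylate, nucleoside and vitamin carriers it was 0.0025 after centring, 0.050 scaled, 0.075 on Cy5, -0.0018 on Cy3, 0.046 with Cy3 turned and 0.045 without low-signal values, and -0.00038 to 0.055 with a mouse left out (0.054 without mouse 2). For lipid carriers it was -0.0099 after centring, 0.076 on Cy5, -0.011 on Cy3 and -0.015 with mouse 1, and -0.026 to 0.038 with a mouse left out (-0.010 without mouse 4). For sugar carriers it was 0.060 on Cy5, and 0.012 to 0.046 with a mouse left out. With a mouse left out it was 0.013 to 0.087 for bile salt and organic anion carriers, 0.0095 to 0.049 for metal ion carriers, -0.0036 to 0.0086 for inorganic ion carriers and 0.044 to 0.11 for mitochondrial ones. After centring it was 0.0040, 0.012, -0.023 and 0.029 in these 4 classes. Members above 0 on all arrays numbered 5 after centring and 14 to 27 with a mouse left out (23 without mouse 4). Members below 0 on all arrays numbered 2 after centring, 1 without the mouse 3 Cy3 array and 5 to 8 with a mouse left out. With a mouse left out only 4 arrays had to share a sign, above as well as below 0. The share of all features is not given here for these settings, so the counts show nothing particular to the members. No paired analysis was possible because the mutant mice face 1 pool, with no wild-type animal to pair with each; the block by mouse joins only the arrays of a mouse.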
